A study of Mus musculus with 6 samples.

Results

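Lipoxygenases and cyclooxygenases turn arachidonic acid, a fatty acid cut from membrane phospholipids, into local signalling lipids. The genes described here are 9 members of these routes, out of 56980 gene rows in the table: the lipoxygenases Alox15, Alox12 and Alox5, the 5-lipoxygenase partner Alox5ap, the cyclooxygenases Ptgs1 and Ptgs2, the prostaglandin E synthase Ptges, the prostaglandin E receptor Ptger3 and the prostaglandin-degrading dehydrogenase Hpgd. They were chosen by name with their knockout and control values already known, in particular the rise of Alox15. Their differences between the groups are therefore given as a description of those values, adjusted p-values included, and support nothing further.

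RNA was counted in whole islets isolated from the pancreas of mice at 14 weeks of age. The 3 control libraries came from mice carrying floxed Ssbp3 alleles (SSBP3F/F), and the 3 knockout libraries from littermates with the same floxed alleles plus MIP-CreER, a Cre recombinase that tamoxifen activates and the mouse insulin promoter drives, so that deletion is directed to beta cells while the other islet cells keep the gene. Ssbp3 encodes a co-regulator that works with the LIM-domain binding protein LDB1. Because every knockout library carries MIP-CreER and no control library does, the transgene and the deletion cannot be told apart here. The sources used here do not give the tamoxifen treatment, nor whether a library is 1 animal or a pool, so a p-value reflects only how these libraries spread, which may be partly technical.

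Mouse Alox15 encodes the 12/15-lipoxygenase, which adds oxygen to arachidonic acid and gives mostly 12-HETE, and Alox12 encodes the platelet-type 12-lipoxygenase. Alox5 starts the leukotriene branch with the help of the membrane protein made from Alox5ap. The cyclooxygenases open the prostaglandin branch, Ptges makes prostaglandin E2, and the Ptger3 product, EP3, is a receptor for it that couples to inhibitory G proteins and lowers cyclic AMP, the messenger through which incretins raise insulin secretion. In islets the 12-lipoxygenase product and EP3 signalling are both known from work on beta-cell stress.

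Library totals ran from 14907641 counts in knockout 1 to 225428920 in control 3, and control 1 was also shallow at 17587055. A count of 3, taken as the floor, stood for 0.0135 to 0.194 CPM (a gene's counts as a rate of its library's total, on library sizes scaled by edgeR's TMM factors). Even numbers made up 62.3% to 73.2% of a library's nonzero counts, so that a count of 2 may be a single read pair. Ssbp3 itself stood at 65.8, 81.3 and 74.2 CPM in control 1 to 3 and at 52.3, 58.1 and 57.1 CPM in knockout 1 to 3, without reaching the threshold (log2 fold change -0.40, SE 0.117, edgeR adjusted p = 0.0581). Markers of beta cells were abundant in every library, with Ins1 and Ins2 leading, but lower in knockout libraries. Their sum was 163844 to 217498 CPM in control and 121492 to 139956 CPM in knockout libraries. All 6 had negative estimates, from -0.02 for Nkx6-1 to -1.15 for Mafa. Mafa and Ucn3 were called lower (edgeR adjusted p = 0.0156 and 0.0176), 2 of 6 beside 3.35% of all genes tested. Acinar markers summed to between 11033 and 37025 CPM, highest in knockout 2. In whole islets, fewer cells of a type and less RNA per cell cannot be told apart.

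Alox15, Alox12 and Alox12e, a lipoxygenase gene of the epidermis, lie side by side in the mouse genome and resemble each other, so the sequences are shown to see whether a read of one could be counted for another. The coding sequence of Alox15 (1989 bases) was 67.7% identical to that of Alox12 and 69.3% identical to that of Alox12e over the aligned bases, and 59.0% identical to that of Alox5. Its longest uninterrupted match with Alox12 was 18 bases, at coding bases 220 to 237 of both genes, and with Alox12e 16 bases. The pairs of stretches below hold these runs in capitals with 20 bases on either side, 5′ to 3′, from the GENCODE M21 transcripts of build GRCm38.
Alox15, beside Alox12: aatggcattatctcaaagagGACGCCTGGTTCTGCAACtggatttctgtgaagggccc
Alox12, beside Alox15: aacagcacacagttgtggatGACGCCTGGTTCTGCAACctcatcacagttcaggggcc
Alox15, beside Alox12e: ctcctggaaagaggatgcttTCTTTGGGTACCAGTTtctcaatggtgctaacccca
Alox12e, beside Alox15: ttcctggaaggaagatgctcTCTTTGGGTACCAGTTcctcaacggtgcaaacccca

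The lower-case flanks differ at many positions. Of the 2403 distinct 50-base words in the annotated Alox15 transcripts, 0 occurred in a transcript of any other gene on either strand, and the same held for Alox5, Ptgs2, Ptges, Ptger3 and Hpgd. The coding sequences of Ptgs1 and Ptgs2 were 67.1% identical, with a longest common run of 14 bases. Sharing was found for Alox12 (0.372% of its words), Ptgs1 (2.63%) and Alox5ap (6.80%). For Alox5ap the words belong to the antisense gene Gm19719, which overlaps 189 of its exon bases. Since the strand setting of the counting is not given, part of the Alox5ap counts may come from that gene, which held 28 to 267 counts a library.

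Alox15 (ENSMUSG00000018924) was all but absent from control islets and present in every knockout library. It had 0, 0 and 2 counts in control 1, 2 and 3, against 192, 520 and 224 counts in knockout 1, 2 and 3. On the CPM scale these were 0, 0 and 0.00902 in control and 12.4, 6.49 and 2.12 in knockout 1, 2 and 3. At the floor of 3 counts, control 1 would stand at 0.169 CPM and control 2 at 0.0373 CPM, both below the lowest knockout library. Over pooled counts, 936 in knockout and 2 in control, the ratio of scaled rates was 745, with an exact 95% interval of 206 to 6157. That interval takes every count as independent and leaves out the spread between libraries. It is too narrow if a read pair gave 2 counts. The fitted log2 fold change was 9.84 (SE 0.980, edgeR adjusted p = 0.000531), a size that depends on the small prior count given to the control libraries. The groups were far apart, but the knockout libraries also differed among themselves, by 5.85-fold between knockout 1 and knockout 3.

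The gene kept its call in all 16 alternative settings (adjusted p 3.01e-53 to 0.0462), including the omission of each library in turn. Its size moved with the setting: the log2 fold change was 8.33 with limma-voom, 9.17 without both shallow libraries and 11.68 without control 3, the control library that held the 2 counts (adjusted p 0.0462, 0.0193 and 0.0441). Its passage through the filter on low counts rested on the knockout libraries alone.

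**Figure D1:**
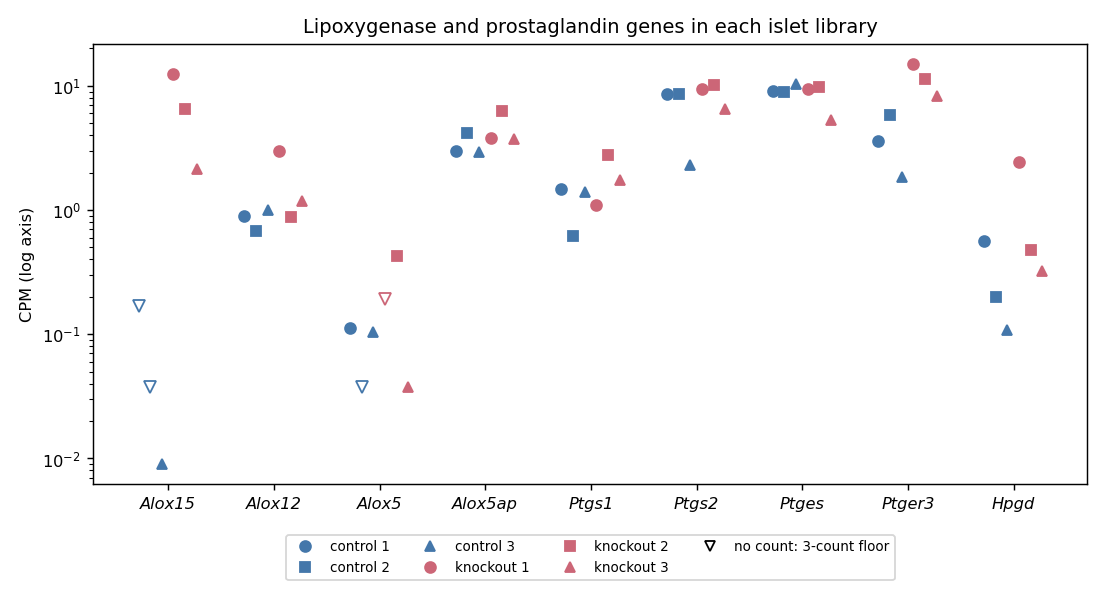
CPM of the 9 genes in each library (log axis; control in blue, knockout in red, each library with its own symbol; open triangles mark libraries without a count, drawn at the level of 3 counts). Alox15 and Ptger3 are the genes whose knockout libraries all lie above the control libraries.

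The other lipoxygenase genes were low in both groups. Alox12 (ENSMUSG00000000320) stood at 0.903, 0.672 and 1.01 CPM in control 1 to 3 and at 2.98, 0.886 and 1.18 CPM in knockout 1 to 3. Its groups overlapped, since knockout 2 lay below control 1 and control 3, and the high value came from the shallow knockout 1, where it rested on 46 counts. The log2 fold change was 0.90 (SE 0.522, edgeR adjusted p = 0.353), and 0.26 at its lowest over the alternatives. Alox5 (ENSMUSG00000025701) had 2, 0 and 23 counts in control 1, 2 and 3 and 0, 34 and 4 counts in knockout 1, 2 and 3, too few to be tested. Its highest level was 0.424 CPM in knockout 2.

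Alox5ap (ENSMUSG00000060063) had a higher level per exon length than the enzyme it serves. It stood at 2.99, 4.16 and 2.96 CPM in control 1 to 3 and at 3.82, 6.30 and 3.74 CPM in knockout 1 to 3. Control 2 exceeded both knockout 1 and knockout 3, so the groups overlapped (log2 fold change 0.46, SE 0.291, edgeR adjusted p = 0.403).

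Of the genes around Alox15, 7 were tested and 0 called, beside 7.07% of all genes tested, too few to set them apart from other genes. In map order, Pelp1, a nuclear receptor co-regulator gene on the same strand beside Alox15, had means of 33.0 and 40.7 CPM in control and knockout (log2 fold change 0.30, SE 0.123, edgeR adjusted p = 0.175). The next genes, Arrb2 (beta-arrestin) and Med11 (a Mediator subunit), were at 0.03 and -0.06 on the log2 scale, without a call. On the other side Alox12e held 4 counts over all 6 libraries and was not tested.

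**Figure D2:**
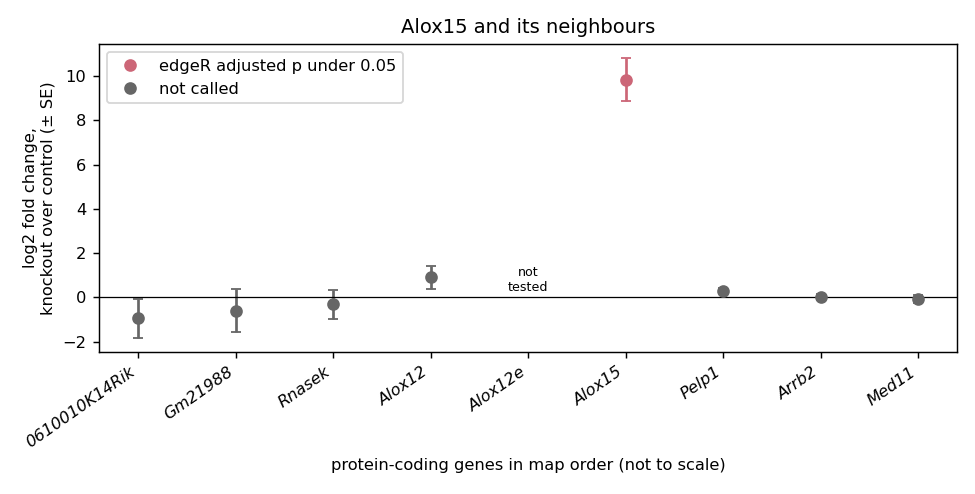
Log2 fold change (knockout over control, bars ± SE) of Alox15 and the protein-coding genes on either side, in map order and not to scale. Alox15 stands at 9.84, while the other 7 tested genes lie between -0.94 and 0.90 and none was called.

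Neither cyclooxygenase gene separated the groups. Ptgs1 (ENSMUSG00000047250), the constitutive form, stood at 1.47, 0.622 and 1.40 CPM in control 1 to 3 and at 1.10, 2.78 and 1.74 CPM in knockout 1 to 3 (log2 fold change 0.74, SE 0.469, edgeR adjusted p = 0.406). Ptgs2 (ENSMUSG00000032487), the inducible form and the main cyclooxygenase of islets, stood at 8.58, 8.54 and 2.33 CPM in control 1 to 3 and at 9.44, 10.2 and 6.50 CPM in knockout 1 to 3 (log2 fold change 0.45, SE 0.473, edgeR adjusted p = 0.653). Control 3, the deepest library, was the low one for Ptgs2 at 516 counts, and without it the log2 fold change was 0.03. Ptges (ENSMUSG00000050737), which follows them, was the member with a negative estimate, at 9.03, 8.91 and 10.4 CPM in control 1 to 3 against 9.38, 9.78 and 5.27 CPM in knockout 1 to 3 (log2 fold change -0.23, SE 0.237, edgeR adjusted p = 0.642). Only knockout 3 lay below the control range, and without it the value was 0.019.

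Ptger3 (ENSMUSG00000040016) was higher in knockout islets. It stood at 3.61, 5.87 and 1.84 CPM in control 1 to 3 and at 15.01, 11.4 and 8.35 CPM in knockout 1 to 3. The lowest knockout library was above the highest control library, and the means were 3.77 ± 2.02 and 11.6 ± 3.33 CPM (SD, n = 3). The log2 fold change was 1.61 (SE 0.403, edgeR adjusted p = 0.0447), close to the threshold. The call ended with upper-quartile scaling (adjusted p = 0.0592) and without control 1, knockout 1, knockout 2, knockout 3 or both shallow libraries (0.146, 0.111, 0.0906, 0.0676 and 0.236), while the estimate stayed between 1.25 and 2.16 over the 16 alternatives (adjusted p 4.47e-09 to 0.236). Counts per gene do not separate the splice forms of EP3.

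Hpgd (ENSMUSG00000031613), which inactivates prostaglandins, had few counts, 10 to 24 in control and 34 to 38 in knockout libraries. The levels were 0.565, 0.199 and 0.108 CPM for control 1 to 3, against 2.46, 0.474 and 0.322 CPM for knockout 1 to 3. Control 1 was above knockout 2 and knockout 3, so the groups overlapped, and the log2 fold change of 2.004 had an SE of 0.949 (edgeR adjusted p = 0.244). Its size rested on knockout 1: without that library it was 0.62.

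Of the 9 genes, 8 could be tested, 2 were called higher (Alox15 and Ptger3) and 0 lower. Over all 18558 genes tested, 7.07% were called, 3.72% higher and 3.35% lower, and 28.0% separated the groups without overlap. Upper-quartile scaling moved the split over all genes from 52.7% to 42.5% higher. The median log2 fold change of the 8 genes was 0.82 beside 0.00 over all genes, and 7 of 8 estimates were positive. Nothing is read from these shares, since the genes were picked with this contrast in view.

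Per kilobase of exon, which allows different genes to be compared, the order of the levels differed between the groups. In control islets Ptges (2.40 ± 0.207 CPM per kilobase) and Alox5ap (2.37 ± 0.481) were highest and overlapped each other. Ptgs2 followed at 1.42 ± 0.786, below every Alox5ap value, and then Ptger3 (0.664 ± 0.356), Ptgs1 (0.2997 ± 0.121), Alox12 (0.211 ± 0.0423) and Hpgd (0.173 ± 0.144), each overlapping its neighbour in the order. Alox5 (0.0176 ± 0.0153) lay below every Hpgd value and overlapped Alox15, which came last. In knockout islets Alox15 stood in second place at 2.86 ± 2.11, between Alox5ap (3.25 ± 1.03) and Ptges (2.07 ± 0.634), and Ptger3 reached 2.04 ± 0.586 (SD, n = 3 throughout). Each of the first 8 genes in that order overlapped the next except Alox12, which stayed above Alox5. Among 18113 tested genes with a known length, Alox15 lay above 0.0773% in control and above 54.8% in knockout islets, and Ptger3 above 30.2% and 47.9%. The control place of Alox15 follows from the filter on low counts, which it passed through the knockout libraries alone, so nothing is read from it.

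**Figure D3:**
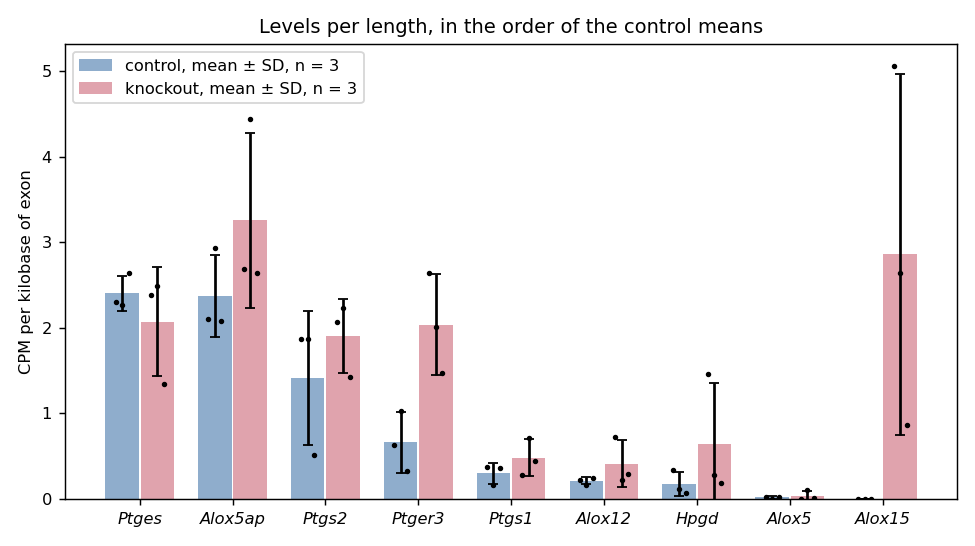
Level per kilobase of exon (bars, mean ± SD with lower bars cut at 0, n = 3 per group; points, libraries) in the order of the control means. Alox15 has no visible bar in control and reaches 2.86 in knockout islets, with wide spread.

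The 5 genes whose log2 CPM ran most like that of Alox15 over the 6 libraries, among 12386 candidates, were Gbp11, Chn1, Rhbdl3, Slc5a10 and Fam221a, with Pearson correlations of 0.995 to 0.998. All 6 points share the group difference, so the values describe the match and carry no test. All 5 were, like Alox15, highest in knockout 1 and lowest in knockout 3 among the knockout libraries, an order that their choice by correlation favours. Gbp11, Rhbdl3 and Slc5a10 were called by edgeR. Chn1 (log2 fold change 0.35, edgeR adjusted p = 0.173) and Fam221a (0.71, adjusted p = 0.0945) were not. Slc5a10, a sugar transporter gene, had the largest log2 fold change of the 5 (4.77), at 0.960, 0.660 and 0.721 CPM in control 1 to 3 against 31.0, 19.6 and 10.8 CPM in knockout 1 to 3. Gbp11, of the guanylate-binding protein family and first by correlation, stood at 0.565, 0.685 and 0.735 CPM in control 1 to 3 and at 6.21, 5.54 and 3.58 CPM in knockout 1 to 3.

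The rest of the eicosanoid pathways was read from 83 genes in 11 lists by role, of which 60 could be tested. In the same edgeR test 3 were called higher and 2 lower, 5 of 60 beside 7.07% of all genes, with a median log2 fold change of 0.08. This share is near that of all genes. A further 23 listed genes, among them Ptger1, Ptger2, Ltc4s and Ptgds, were too low to test.

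At the entry, 1 of 10 tested genes of arachidonate release and remodelling was called lower and 0 higher. This was Pla2g12a, a secreted phospholipase, at 68.6, 80.5 and 88.3 CPM in control 1 to 3 against 46.3, 51.1 and 51.3 CPM in knockout 1 to 3. The groups did not overlap, and the log2 fold change was -0.68 (SE 0.122, edgeR adjusted p = 0.00614). Without both shallow libraries the adjusted p was 0.0776 (8.84e-05 to 0.0776 over 16 alternatives).

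Beyond Alox15, Alox12 and Alox5, the lipoxygenase family gave no called change among 2 tested genes. Aloxe3, the epidermal hepoxilin synthase, averaged 1.20 ± 0.398 CPM in control and 2.06 ± 0.0399 CPM in knockout libraries (SD, n = 3; log2 fold change 0.76, edgeR adjusted p = 0.279). None of the 6 tested leukotriene synthesis genes was called, and the smallest p belonged to Lta4h, the leukotriene A4 hydrolase gene (41.3 ± 5.25 and 45.2 ± 1.99 CPM, n = 3, edgeR adjusted p = 0.623). Receptors of leukotrienes, HETEs and lipoxins were near or under the floor in most cases, with 4 of 9 tested and 0 called. The smallest p there was that of the chemerin and resolvin receptor gene Cmklr1 (log2 fold change 0.10, edgeR adjusted p = 0.909).

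On the prostaglandin side, 0 of 8 other prostanoid synthases were called. Akr1b3, an aldose reductase that can make prostaglandin F2alpha, had the smallest p, with means of 85.1 ± 10.7 CPM (control) and 70.2 ± 6.15 CPM (knockout) (n = 3, log2 fold change -0.28, edgeR adjusted p = 0.219). Of 8 other prostanoid receptor genes 3 were tested and 0 called, and the thromboxane receptor gene Tbxa2r came closest (0.495 ± 0.144 and 1.03 ± 0.3996 CPM, n = 3, edgeR adjusted p = 0.336). Ptger3 was thus the prostanoid receptor gene with a call.

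Slco2a1, which encodes the transporter that takes prostaglandins into cells before Hpgd can act on them, was the 1 called gene of 5 in transport and breakdown. It stood at 12.3, 7.79 and 8.52 CPM in control 1 to 3 and at 13.3, 27.3 and 19.2 CPM in knockout 1 to 3. The groups did not overlap, although control 1 and knockout 1 were close, and the log2 fold change was 1.09 (SE 0.256, edgeR adjusted p = 0.0255). The call ended on leaving out control 2 (adjusted p = 0.124), control 3 (0.0683), knockout 2 (0.0741) or knockout 3 (0.0716), within a range of 5.38e-07 to 0.124 for the 16 alternatives. Slco2a1 is also an endothelial gene, and the 8 endothelial markers summed to 252 to 305 CPM over the control libraries and 298 to 380 CPM in knockout libraries, highest in knockout 2. Cdh5 was the marker called among them (log2 fold change 0.51, edgeR adjusted p = 0.0481). Their part in the rise of Slco2a1 was not tested.

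Lipoxygenase products are hydroperoxides that glutathione peroxidases reduce. The list read for this held Gpx1, Gpx2 and Gpx4, and also Prdx6 and Aifm2, which are not glutathione peroxidases. Of these 5 genes 1 was called, beside 7.07% of all genes tested. Gpx2, a glutathione peroxidase best known from gut epithelium, fell from 88.9 ± 7.79 to 50.8 ± 2.38 CPM (SD, n = 3; log2 fold change -0.81, SE 0.113, edgeR adjusted p = 0.00140). All 3 knockout libraries (48.5, 53.3 and 50.7 CPM) lay below all 3 control libraries (92.6, 94.2 and 80.0 CPM). The call ended without both shallow libraries (adjusted p = 0.0854; 3.04e-07 to 0.0854 over 16 alternatives). Of 4 tested P450 epoxygenase and epoxide hydrolase genes 0 were called, with the smallest p for Cyp2j9 (log2 fold change 1.64, edgeR adjusted p = 0.357).

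EP3 signals through inhibitory G proteins, and 1 of 5 such genes, Gnai2, was called, beside 7.07% of all genes tested. All 5 estimates were positive. Gnao1 (log2 fold change 0.42, edgeR adjusted p = 0.0719) and Gnai1 (0.38, adjusted p = 0.189) were not called but did not overlap, beside 28.0% of all genes tested. Gnao1 was called in 4 of 16 alternatives. Gnai2 stood at 415, 404 and 576 CPM in control 1 to 3 and at 753, 663 and 680 CPM in knockout 1 to 3, without overlap (log2 fold change 0.59, SE 0.154, edgeR adjusted p = 0.0380). Its call ended in 6 of 16 alternatives: without robust shrinkage (adjusted p = 0.0558), and without control 1, control 2, knockout 1, knockout 2 or both shallow libraries (0.157, 0.164, 0.140, 0.0664 and 0.327; 0.000625 to 0.327 overall). Alox15 is a known target of interleukin 4 and 13 signalling through STAT6 in myeloid cells. Stat6 itself averaged 34.3 CPM in control and 34.8 CPM in knockout libraries (log2 fold change 0.02, edgeR adjusted p = 0.940). The receptor genes Il4ra (log2 fold change 0.54, edgeR adjusted p = 0.0658) and Il13ra1 (0.29, adjusted p = 0.254) were higher without overlap, and not called. Il4ra was called in 4 of 16 alternatives. Of 8 tested genes for the receptors of these interleukins and the STAT factors, 7 had a positive estimate. In that list 1 gene was called, beside 7.07% of all genes tested. That gene was Stat5b, at 26.3, 31.3 and 40.7 CPM in control 1 to 3 against 44.0, 49.0 and 62.3 CPM in knockout 1 to 3 (log2 fold change 0.66, SE 0.173, edgeR adjusted p = 0.0389). It too was not called without robust shrinkage (adjusted p = 0.0544) or without control 1, control 2, knockout 1, knockout 2, knockout 3 or both shallow libraries (0.157, 0.162, 0.0577, 0.0599, 0.101 and 0.183; 0.000190 to 0.183 overall).

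**Figure D4:**
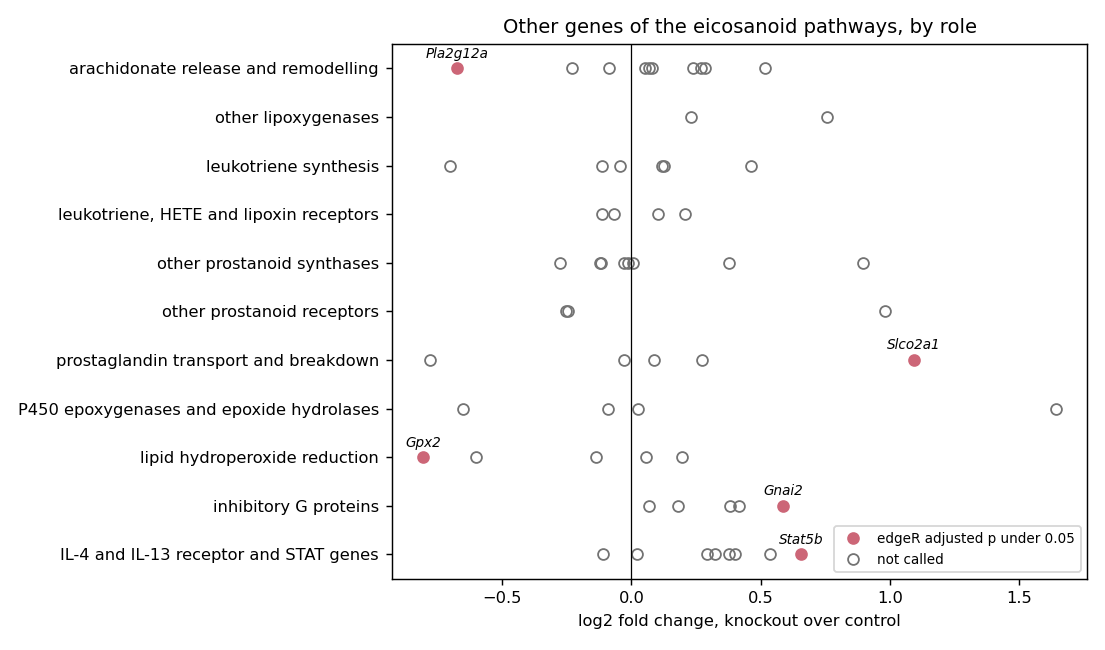
Log2 fold change (knockout over control) of the 60 tested genes in 11 lists, 1 row per list; filled red points were called by edgeR and are named, open points were not. The 5 called genes are spread over 5 lists, with Pla2g12a and Gpx2 on the lower side.

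Several of the 9 genes are also expressed by blood and stromal cells, so the markers of those cells are given beside them. Markers of macrophages, a main source of Alox15, Alox5ap and Ptgs1 in other tissues, summed to 98.0 to 114 CPM in control and 93.0 to 183 CPM in knockout libraries, and 0 of 12 were called. Within the knockout group the macrophage sums (183, 106 and 93.0 CPM) and the Alox15 levels (12.4, 6.49 and 2.12 CPM) ranked the 3 libraries in the same order. Of the markers in the list, Cd68, Csf1r, Mrc1, Cx3cr1 and Fcgr1 did not rank them in that order. Between the groups, knockout 3 had a lower sum than every control library and control 1 stood at 114 CPM with 0 Alox15 counts. C1qa, the marker with the highest mean in both groups, stood at 35.6, 38.4 and 29.9 CPM in control 1 to 3. In knockout 1 to 3 it stood at 66.4, 45.8 and 43.3 CPM, without overlap (edgeR adjusted p = 0.0580). The groups overlapped for every other marker of the list. Among markers of peritoneal or interleukin-4-activated macrophages, Retnla, Chil3, Clec10a and Timd4 did not pass the filter on low counts (Chil3 had 4.78 CPM in knockout 2 and 0.294 CPM or less elsewhere), and the sum of that list (34.3 to 58.2 CPM over the 6 libraries) came mostly from Arg1 and Gata6, which are not confined to macrophages.

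Eosinophils also express Alox15, and their markers Siglecf and Il5ra had 0 counts in all 6 libraries. Of the other 3 genes of that list, Prg2 had 0, 0 and 10 counts in control 1 to 3 and 2, 56 and 6 counts in knockout 1 to 3, higher in CPM in each knockout library, Epx had 4 counts, all in knockout 2, and Ccr3 had counts in both groups. The list summed to at most 0.226 CPM in control and 0.924 CPM in knockout libraries, the latter in knockout 2. The mast cell list stayed at or under 1.08 CPM, and Fcer1a had 0 counts throughout. Markers of platelets and their precursors, which express Alox12, summed to 1.57 to 2.08 CPM in control and 1.46 to 4.46 CPM in knockout libraries, highest in knockout 1, where Alox12 was highest too. Pf4 (2.98 CPM, 46 counts) made up most of the knockout 1 sum, and Itga2b was also highest there. Ppbp was highest in knockout 2 (0.849 CPM), Gp9 had 0 counts in knockout 1, and Gp1bb held at most 4 counts in any library. Neutrophil markers reached 38.8 CPM in knockout 2, almost wholly from S100a8 (13.01 CPM) and S100a9 (24.2 CPM), against 3.10 CPM or less elsewhere. The markers of that list did not all go this way. Ly6g had 0 counts in all 6 libraries. Csf3r was highest in CPM in knockout 1, and lower in knockout 2 than in control 2. Mpo and Retnlg had counts in knockout 2 alone. Knockout 2 was also the library with the highest Alox5, Alox5ap and Ptgs1. The part of these cells in the values of Alox15, Alox12, Alox5, Alox5ap and Ptgs1 was not tested.

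Tuft cells, which express Alox5, Alox5ap and Ptgs1 in other epithelia, were represented by 7 markers. Their sum was 27.8 to 29.9 CPM in control and 10.996 to 21.4 CPM in knockout libraries, carried by Trpm5 and Dclk1, which islet cells also express, and Dclk1 fell (log2 fold change -0.96, edgeR adjusted p = 0.0206). The defining tuft cell factor Pou2f3 had counts in control 3 alone and Gfi1b in none.

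**Figure D5:**
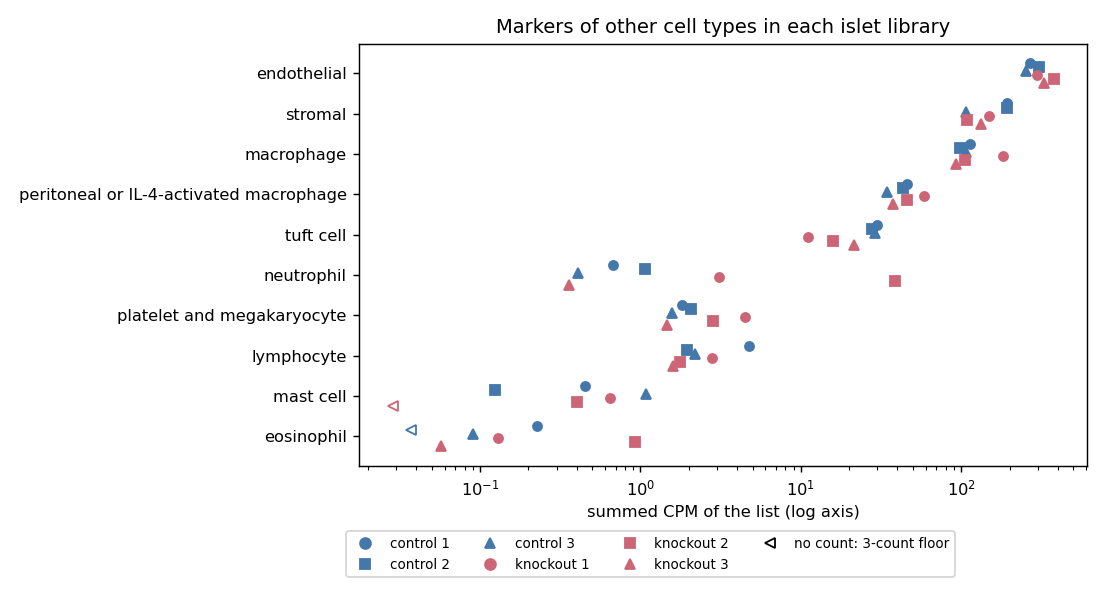
Summed CPM of 10 marker lists in each library (log axis; control in blue, knockout in red; open triangles, no count, at the level of 3 counts). The macrophage sum of knockout 1 (183 CPM) and the neutrophil sum of knockout 2 (38.8 CPM) stand apart, and eosinophil and mast cell sums stay near or under 1 CPM.

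Promoter windows (250 bases before to 50 after the start, RefSeq on GRCm38.p6) were at hand for 7 of the 9 genes, and not for Alox15 or Alox5ap. They were searched for the STAT element TTCNNNGAA and the LIM-homeodomain core TAATTA, each its own reverse complement, so that a match counts for both strands. The STAT element occurred in 0 of the 7 windows and in 8.30% of all 32851 windows, and the core in 1 of 7 and in 5.29%. Ptgs1 held the match, 53 bases before its start. The upstream parts of the windows of Ptger3, the called gene among the 7, and of Ptgs1, for the match (in capitals), are shown without transcribed bases, 5′ to 3′, at chr3:157566626-157566820 and chr2:36230176-36230425, both on the plus strand.
Ptger3: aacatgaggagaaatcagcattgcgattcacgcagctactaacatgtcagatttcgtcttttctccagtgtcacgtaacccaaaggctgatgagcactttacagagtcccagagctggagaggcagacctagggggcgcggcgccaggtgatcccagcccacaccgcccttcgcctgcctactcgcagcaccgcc
Ptgs1: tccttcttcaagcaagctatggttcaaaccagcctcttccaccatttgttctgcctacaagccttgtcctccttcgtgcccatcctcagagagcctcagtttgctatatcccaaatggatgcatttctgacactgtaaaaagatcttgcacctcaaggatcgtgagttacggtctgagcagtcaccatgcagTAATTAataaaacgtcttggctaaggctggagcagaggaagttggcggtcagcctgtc
A match describes letters only, and its absence from these windows says nothing of the factors.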

How the data were processed

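Total RNA of whole islets was sequenced in 6 libraries. The submitters' processing notes name featureCounts, STAR 2.7.3a, Trim Galore 0.6.7 and FastQC 0.11.9, and GRCm39 (mm39) as the build. The sources used here do not give the annotation, the strand setting or the handling of read pairs. The authors deposited raw counts for 56980 gene IDs, of which 52073 matched a symbol. Columns name the group but not the animal.

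The test was run with edgeR 4.0.16 in R 4.3.3 (filterByExpr, TMM, robust quasi-likelihood test), with Benjamini-Hochberg adjustment over the 18558 genes tested and a threshold of 0.05. It was checked on simulated counts. Alternatives were other scalings and filters, DESeq2 1.42.0, limma-voom 3.58.1, no robust shrinkage, an acinar covariate, omitted libraries and, added later, a replicate block. Exon lengths and transcripts came from GENCODE M21 (GRCm38), sequences were aligned with Biopython 1.88. Likeness to Alox15 used log2 CPM with a prior count of 2 among named genes with a mean of at least 1 CPM. Every one of the 9 genes is described. From each pathway list the called genes, or else the one with the smallest p, are named, and any other gene was picked with its values in view. The members and lists were chosen with earlier results of these data known.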

Additional observations from a re-analysis of the deposited data

How the results depend on the processing

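The number of genes called, 1312, became 2153 without a filter, 2094 with DESeq2, 2185 with the acinar covariate and 124 without both shallow libraries, and ran from 519 to 1309 when single libraries were left out. Of the 9 described genes, 2 were called, against 1 with upper-quartile scaling, 1 without both shallow libraries and 1 to 2 with single libraries left out. The gene lost was Ptger3 each time, and Alox15 was called in all 16 alternatives. Of the pathway genes 5 were called, against 3 without robust shrinkage, 8 with the acinar covariate, 1 without both shallow libraries and 2 to 5 with single libraries left out. Fewer libraries leave fewer degrees of freedom, and the cause of the other shifts was not tested. The log2 estimate of Ptges (-0.23) ran from -0.40 to 0.019 with single libraries left out, turning positive without knockout 3, and that of Cmklr1 (0.10) from -0.055 to 0.25, negative without control 3, neither called. Depth limits Alox5, Hpgd, Ptgs1 and Alox12 most, with at most 46 counts each in either of the shallow libraries (control 1 and knockout 1). A fit with a replicate block on the number in the column names was added after seeing the data and is outside the 16 alternatives. It called 2105 genes, the same number of the 9 described genes (2) and 7 pathway genes, and Slco2a1 was no longer called (adjusted p = 0.0570). Deviations from the group means of same-numbered libraries correlated at 0.0162, 0.0806 and 0.0659 over genes. Different-numbered libraries gave -0.0666 to 0.000323, so every library correlated best with its own number, and number 1 was the shallow library in both groups. A pairing is therefore not excluded. The columns cannot be tied to the numbers in the labels, so the libraries are taken to share only a number.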
